A study of Mus musculus with 20 samples.

Results

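Goblet cell mucus genes were read in RNA sequencing counts from the proximal colon (PC) of mice of the inbred strain C57BL/6. The genes are Muc2, Fcgbp, Clca1, Zg16, Tff3, Spink4, Agr2, Spdef, and Atoh1. They were taken by name from a list of goblet cell genes, with no measured value in the rule, and all 9 were found among the 12701 genes of the count table. The list was, however, chosen with earlier results of these data known. The mice were 3 weeks old at the start, were fed for 6 weeks with the Total Western Diet (TWD), which copies the nutrients of a typical American diet, and then had 0, 2, 5, or 10% RPS (resistant potato starch) in that diet for 3 weeks. Most of this raw starch passes the small intestine undigested, and gut bacteria ferment it further down. Each of the 4 diets had 5 libraries, for 20 in all, and every group, the 0% RPS control included, ate the same basal TWD. Each library came from a whole segment of gut wall, so it holds muscle, stroma, and blood cells as well as epithelium.

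Goblet cells are the secretory cells of the colon epithelium that make the mucus gel between the bacteria of the lumen and the tissue. MUC2, a very large glycoprotein, forms the net of the gel. AGR2 helps to fold it in the endoplasmic reticulum, glycosyltransferases coat it with sugars in the Golgi, and FCGBP, CLCA1, and ZG16 are secreted with it. ATOH1 commits crypt cells to the secretory lineage and SPDEF drives the maturation of goblet cells. In bulk tissue, fewer or more goblet cells and less or more RNA per goblet cell cannot be told apart.

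The libraries held 20581013 to 35083751 counts, so the counting error of these abundant genes is small beside the spread between mice. The 10 general epithelial markers were all in the table and none was at 0. A library of the control diet stood apart from the other 19, and its values bear on every comparison with 0% RPS. In 0% RPS replicate 2, the summed normalized counts (counts divided by DESeq2 size factors) of 6 posterior Hox genes, which mark position along the gut, were 5982 compared to 1310 to 2658 in the others. Of these 6 genes, 4 were at their highest of all libraries in that library and 2 at their lowest. The sum of 9 absorptive colonocyte markers was 178030 there and 325120 to 617650 elsewhere, with 3 of the 9 at their lowest and 2 at their highest. The sum of 9 smooth muscle markers was 298940 compared to 125830 to 264360, with 8 of the 9 at their highest of all libraries. The sum of 4 leukocyte markers was 12928 compared to 2157 to 6057, with 3 of the 4 at their highest. The sum of 10 epithelial markers (424250) lay within the range of the others, with 3 of the 10 at their lowest. Whether these differences played a part in the goblet gene results was not tested, and the goblet gene results are given with and without that library.

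Muc2 took the larger part of the goblet mRNA counts. It averaged 1.85% of all counts in a library (1.14 to 3.01%), ranked 2 among all genes by mean normalized count, and made up 70.5% of the counts of the 9 genes. All 9 together held 2.61% ± 0.539 (SD, n = 20) of the counts. The share averaged 2.23% ± 0.553 at 0% RPS, 2.48% ± 0.505 at 2%, 2.81% ± 0.197 at 5%, and 2.91% ± 0.647 at 10% (SD, n = 5 each), so the SDs of neighboring diets overlapped.

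Levels were compared between genes per kilobase of merged exon, since a long transcript yields more reads. Merged exons pool all annotated transcripts of a gene, so the length can exceed that of the transcript present and lower the value. On that scale Muc2, Zg16, Tff3, and Agr2 stood together at the top. Muc2 had 35950 ± 9139 normalized counts per kilobase, Zg16 34840 ± 9477, Tff3 32270 ± 8741, and Agr2 30470 ± 7574 (SD, n = 20). Their order was not fixed: Muc2 was above Zg16 in 9 of 20 libraries, Zg16 above Tff3 in 14, and Tff3 above Agr2 in 12. Spink4, a small secreted peptide of the Kazal inhibitor type, followed at 11560 ± 3561, and Clca1, a secreted protease of the mucus, at 10460 ± 2120. These neighbors too were in either order, with Spink4 higher in 12 of 20 libraries. Agr2 was above Spink4 and Clca1 above Fcgbp in 20 of 20. Fcgbp, a large protein bound to the MUC2 gel, had 4253 ± 1263, and the transcription factors came last, with Spdef at 2008 ± 393 and Atoh1 at 1040 ± 237. Muc2 was 34.6 times as high as Atoh1 per kilobase.

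**Figure D1:**
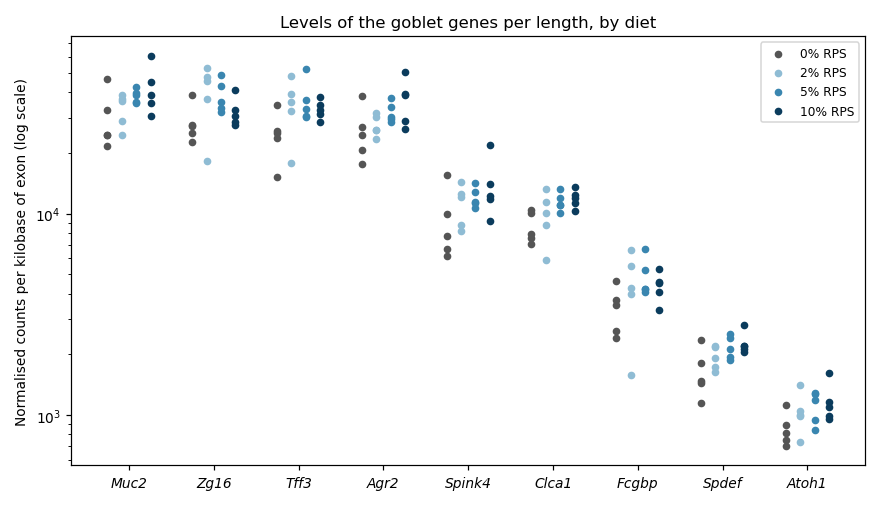
Normalized counts per kilobase of merged exon (log axis) of the 9 goblet genes in the 20 libraries, ordered by mean; each point is 1 library, colored by diet. Muc2, Zg16, Tff3, and Agr2 overlap at the top (means 30470 to 35950), and Atoh1 (mean 1040) lies lowest.

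On GRCm39 the genes lie on 6 chromosomes, and 3 of them, Muc2, Fcgbp, and Zg16, are on chromosome 7, far apart from each other. Muc2 (ENSMUSG00000025515) runs from 141276583 to 141308430 on the plus strand and has 13916 bases of merged exon. Agr2 (ENSMUSG00000020581) is on chromosome 12 from 36042904 to 36054086, plus strand, and Spdef (ENSMUSG00000024215) on chromosome 17 from 27933326 to 27947929, minus strand. No exon base of any of the 9 is shared with another annotated gene. Fcgbp carries one limit: 6.56% of the 50-base windows of its transcripts also occur in transcripts of other genes, among them Fcgbpl1, and how the authors counted such reads is not stated. The other 8 genes had no shared window.

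The start regions of 3 genes are shown: Muc2 and Agr2 because their levels correlated closely over libraries, and Fcgbp because it belongs to another correlated group (values are given further on). Each runs 5′ to 3′ from 250 bases before the annotated start to 50 after it, read from the GRCm39 genome at GENCODE M39 starts, and capitals mark the motifs searched.
Muc2 (chr7:141276333-141276632, plus strand): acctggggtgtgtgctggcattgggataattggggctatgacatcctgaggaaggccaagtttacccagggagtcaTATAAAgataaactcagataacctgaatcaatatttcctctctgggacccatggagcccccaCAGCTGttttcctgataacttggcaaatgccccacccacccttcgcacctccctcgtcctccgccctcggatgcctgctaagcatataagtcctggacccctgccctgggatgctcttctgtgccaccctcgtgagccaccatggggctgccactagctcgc
Agr2 (chr12:36042654-36042953, plus strand): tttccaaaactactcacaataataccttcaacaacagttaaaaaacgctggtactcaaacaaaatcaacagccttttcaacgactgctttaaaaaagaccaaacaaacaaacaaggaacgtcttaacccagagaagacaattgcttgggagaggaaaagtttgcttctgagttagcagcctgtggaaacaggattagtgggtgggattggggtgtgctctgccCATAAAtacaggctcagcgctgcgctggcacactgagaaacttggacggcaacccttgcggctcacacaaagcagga
Fcgbp (chr7:27770411-27770710, plus strand): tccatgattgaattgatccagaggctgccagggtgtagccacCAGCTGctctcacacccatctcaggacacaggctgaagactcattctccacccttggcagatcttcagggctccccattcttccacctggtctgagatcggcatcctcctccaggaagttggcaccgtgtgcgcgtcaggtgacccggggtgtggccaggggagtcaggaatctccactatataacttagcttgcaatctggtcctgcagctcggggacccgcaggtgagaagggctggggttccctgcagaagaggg
A set of 7 short motifs was looked for on both strands in the same window of 8 of the goblet genes and of 11748 genes of the table. The E-box CAGCTG was in Muc2 (at -112 from the start) and Fcgbp (at -208), and in 13.7% of all windows. The E-box CAGATG was in Zg16, and in 12.8%. The CDX-type TTTATG was in Agr2 (at -27, on the opposite strand) and Spdef, and in 8.23%. TATAAA was in Muc2 and Zg16, and in 8.38%. The FOXA-type TGTTTAC (2.72% of all windows), the ETS-type CCGGAT (9.18%), and the HNF4-type CAAAGTCCA (0.434%) were in none of the 8. These letters describe the windows only.

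Compared to 0% RPS, all 9 goblet genes had a higher mean at each starch level, and in none of the 3 comparisons did any of them pass the test. The test was that of the study, DESeq2 with p adjusted over all genes (Benjamini-Hochberg) at or under 0.05 and a fold change of at least 1.5. At 2% RPS 0 of 9 were called, where 0.0239% of the 12561 genes tested were called. At 5% RPS 0 of 9 were called, with 0.438% of all genes, and at 10% RPS 0 of 9, with 0.9% of all genes. The median log2 fold change of the 9 was 0.28 at 2%, 0.40 at 5%, and 0.46 at 10% RPS, while the median of all genes tested was -0.0076, -0.0089, and 3.6e-05. At an unadjusted p under 0.05, 2 of 9 were higher at 2% (5.26% of all genes), 6 of 9 at 5% (9.23%), and 6 of 9 at 10% (10.1%). With edgeR's quasi-likelihood test these were 2, 5, and 6, and 0 were called in each comparison. Of the 12366 genes that edgeR tested, it called 0 at 2%, 7 at 5%, and 40 at 10% RPS. For each gene the 5 libraries of a starch diet overlapped with the 5 of 0% RPS in all 3 comparisons. Starch libraries lay wholly above the controls for 0.477% of all genes at 2%, 1.46% at 5%, and 1.35% at 10% RPS.

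Over the 4 diets together, Agr2 was the gene that passed. The trend over the percentage of RPS, tested by DESeq2 with no fold threshold, was called for 1 of 9 goblet genes and for 4.29% of all genes. Agr2 rose by 0.053 ± 0.016 (SE) on the log2 scale per percentage point of RPS (adjusted p = 0.0358), but edgeR gave an adjusted p of 0.0969. Spdef (adjusted p = 0.055), Clca1 (0.0577), and Muc2 (0.0861) came next in DESeq2 and were not called. A test for any difference among the 4 diets called 0 of 9 in DESeq2 and in edgeR. Over all genes it called 2.38% in DESeq2 and 7 of 12366 in edgeR. An unadjusted p under 0.05 was found for 3 of 9 in each (14.3% of all genes in DESeq2). Diet took 17.7 to 41.8% of the variance of these genes, lowest in Fcgbp and highest in Spdef, compared to a median of 17.7% over 12348 genes. Such a share lies above 0 even for a gene that diet does not change. The SD of the 9 goblet genes within diets, 0.236 to 0.478 on the variance-stabilized log2 scale, was above the median of all genes (0.106).

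**Figure D2:**
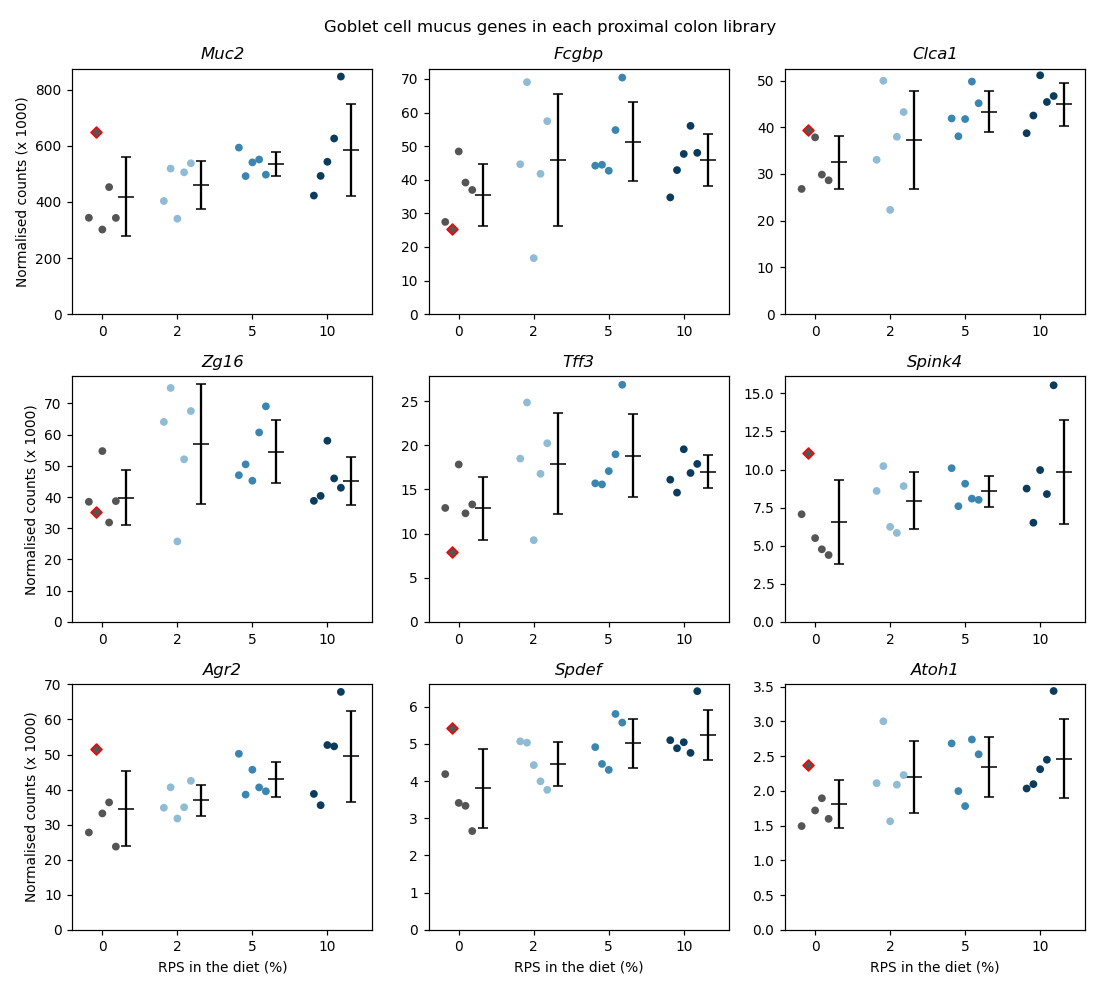
Normalized counts, in units of 1000, of the 9 goblet genes by the percentage of RPS in the diet; points are libraries, the red-edged diamond is 0% RPS replicate 2, and black bars are mean ± SD (n = 5). For Muc2, Clca1, Spink4, Agr2, Spdef, and Atoh1 the diamond is the highest of the 5 control libraries, whereas for Fcgbp and Tff3 it is the lowest.

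Muc2, the gel-forming mucin, had normalized counts of 343660, 650050, 301700, 452950, and 343190 in the 5 libraries of 0% RPS. The values were 403390, 518940, 340250, 505650, and 538030 at 2% RPS. At 5% they were 593830, 492230, 541120, 551320, and 497280, and at 10% 422790, 492930, 543240, 626370, and 847110. All 5 libraries at 5% and 4 of 5 at 10% lay above every control but replicate 2, which was above all of the 5% libraries. The log2 difference from 0% RPS was 0.14 ± 0.19 (SE) at 2%, 0.36 ± 0.19 at 5%, and 0.49 ± 0.19 at 10%, where the adjusted p was 0.124. The last corresponds to a fold of 1.40, with a 95% interval of 1.08 to 1.82.

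Of the proteins secreted with MUC2, Clca1 differed most evenly between diets. Its normalized counts were 26800, 39333, 37838, 29869, and 28647 at 0% RPS and 38727, 42511, 51122, 45407, and 46680 at 10%. At 5% they ran from 38069 to 49781 and at 2% from 22319 to 49948. At both 5 and 10% RPS 4 of 5 libraries were above the highest control. The log2 difference was 0.41 ± 0.16 at 5% (adjusted p = 0.151) and 0.47 ± 0.16 at 10% (adjusted p = 0.0631).

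Zg16, a lectin that binds Gram-positive bacteria, had its highest mean at 2% RPS (56868 ± 19241, SD), close to that at 5% (54469 ± 10105). These diets were not compared with each other by a test. It had 38474, 35252, 54705, 31834, and 38688 normalized counts at 0% RPS and 64039, 74919, 25772, 52081, and 67529 at 2%. The range was 45215 to 69031 at 5% and 38774 to 58014 at 10%. One library at 2%, replicate 3, was below every control and 3 were above all of them. The log2 difference was 0.52 ± 0.21 at 2% (unadjusted p = 0.0141, adjusted 0.468), 0.45 ± 0.21 at 5%, and 0.18 ± 0.21 at 10%. Without 2% RPS replicate 3, Zg16 was the 1 goblet gene called at 2%. Leaving out single libraries gave 1 to 10 called genes at 2% in the whole table. Fcgbp ranged from 25454 to 48416 at 0% and from 16670 to 69042 at 2% RPS, with log2 differences of 0.37 ± 0.25 at 2%, 0.53 ± 0.25 at 5%, and 0.37 ± 0.25 at 10%. Its intervals reached below 0 at 2% and at 10%.

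Of the small secreted peptides, Tff3, a trefoil factor that aids repair of the epithelium, had its largest difference at 5% RPS. Its normalized counts were 12907, 7886, 17830, 12298, and 13305 at 0% RPS and 15694, 15573, 17080, 18979, and 26857 at 5%. The range was 9261 to 24846 at 2% and 14644 to 19553 at 10%. All 5 libraries at 5% and at 10% lay above the control mean, and 2 of 5 lay above the highest control at each level. The log2 difference was 0.48 ± 0.21 at 2%, 0.55 ± 0.21 at 5% (adjusted p = 0.156), and 0.41 ± 0.21 at 10%. Spink4 had 7067, 11088, 5502, 4767, and 4392 normalized counts at 0% RPS and 8752, 6511, 9967, 8391, and 15530 at 10%. The highest control, replicate 2, was above all 5 libraries at 5% (7594 to 10090). The log2 difference of Spink4 was 0.28 ± 0.27 at 2%, 0.39 ± 0.27 at 5%, and 0.58 ± 0.27 at 10%, the widest errors of the 9.

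Agr2, the disulfide isomerase needed for MUC2 folding, was the gene with the called trend. It had 27760, 51599, 33189, 36340, and 23719 normalized counts at 0% RPS, and 34815, 40638, 31724, 34948, and 42484 at 2%. At 5% the values were 50207, 38553, 45654, 40607, and 39508, and at 10% 38749, 35538, 52696, 52330, and 67865. Again control replicate 2 stood above all libraries at 2 and 5%, and 3 of 5 libraries at 10% were above it. The log2 difference was 0.097 ± 0.18 at 2%, 0.31 ± 0.18 at 5%, and 0.52 ± 0.18 at 10% (adjusted p = 0.0704, edgeR 0.145).

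Of the transcription factors, Spdef came closest to a call at 10% RPS. It had 4187, 5430, 3413, 3335, and 2655 normalized counts at 0% RPS and 5100, 4883, 5045, 4759, and 6419 at 10%. It ran from 3764 to 5069 at 2% and from 4301 to 5806 at 5%. Each library at 10% lay above 4 of the 5 controls, and 1 of 5 lay above control replicate 2 as well. The log2 difference was 0.23 ± 0.15, 0.40 ± 0.15, and 0.46 ± 0.15 at 2, 5, and 10%, and at 10% the adjusted p was 0.0493 in DESeq2 and 0.117 in edgeR. The fold of 1.38 was below 1.5, so that Spdef would be called only with no fold threshold, as 4.6% of all genes were. Atoh1 ranged from 1493 to 2372 at 0% and from 2035 to 3439 at 10% RPS, with log2 differences of 0.28 ± 0.18, 0.37 ± 0.18, and 0.44 ± 0.18 (adjusted p = 0.125 at 10%).

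More of these genes passed when the control library that stood apart was left out. Without 0% RPS replicate 2, 4 of 9 goblet genes were called higher at 10% RPS, and 1.6% of all genes were called. These were Muc2 (0.70 ± 0.17, adjusted p = 0.00225), Spink4 (0.86 ± 0.21, adjusted p = 0.00216), Agr2 (0.71 ± 0.16, adjusted p = 0.00105), and Spdef (0.63 ± 0.13, adjusted p = 0.000334). With edgeR the count at 10% was also 4, with 130 of all genes called. Atoh1 and Clca1 then had adjusted p values of 0.0267 and 0.0192 at 10% with folds under 1.5. At 5% RPS 1 of 9, Spink4, was called (0.66 ± 0.21, adjusted p = 0.041), with 0.827% of all genes. The trend was called for 5 of 9, Muc2, Clca1, Spink4, Agr2, and Spdef, and for 6.43% of all genes. Fcgbp, Zg16, and Tff3 went the other way: at 10% their differences were 0.27, 0.14, and 0.27 without that library, smaller than with it. Their adjusted p values were 0.584, 0.741, and 0.442. The direction of each shift was set by where that library stood among the controls. It was the highest control for Muc2, Clca1, Spink4, Agr2, Spdef, and Atoh1, and the lowest for Fcgbp and Tff3. For Zg16 it had 35252 normalized counts, below the control mean of 39790.

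**Figure D3:**
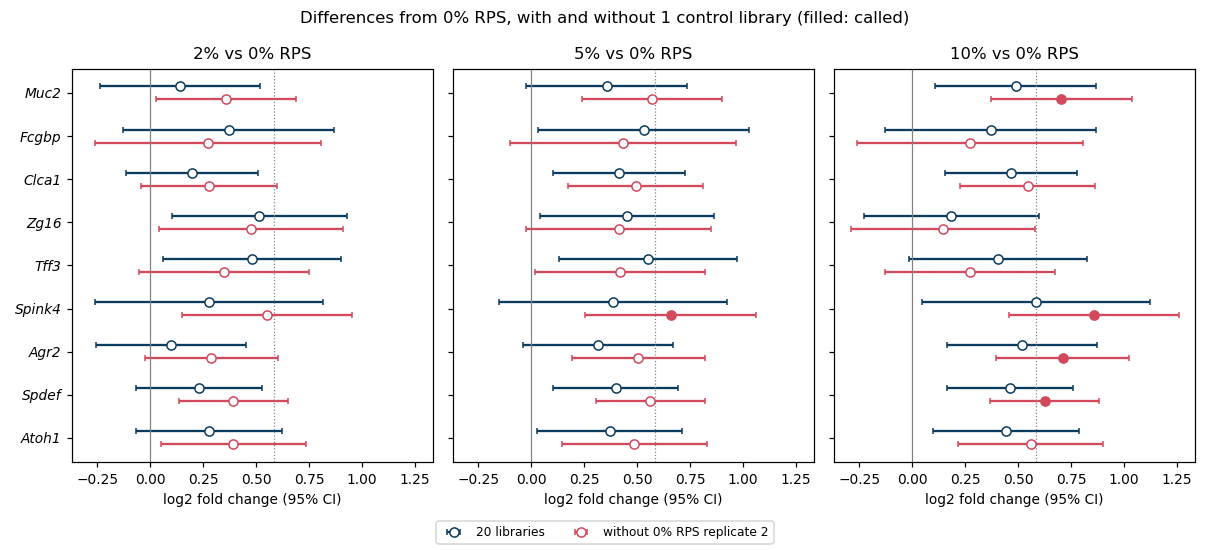
Log2 fold change from 0% RPS with 95% intervals for the 9 goblet genes at each starch level, with all 20 libraries (blue) and without 0% RPS replicate 2 (red); filled points are called and the dotted line is a fold of 1.5. At 10% RPS Muc2, Spink4, Agr2, and Spdef are filled only without that library, and at 5% only Spink4 is.

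Other single libraries moved single calls. Over all genes, omission of each library in turn gave 24 to 104 calls at 5% RPS, 62 to 201 at 10%, and 178 to 807 in the trend. With all libraries these were 55, 113, and 538. Tff3 was called at 5% RPS when 0% RPS replicate 3 was left out. Without 10% RPS replicate 1 or replicate 2, Agr2 was called at 10%. The Agr2 trend was not called without 0% RPS replicate 1, 4, or 5, without 2% RPS replicate 4, or without 10% RPS replicate 3 or 5. In the last of these, 10% RPS replicate 5, Muc2, Spink4, Agr2, Spdef, and Atoh1 had their highest values of all 20 libraries.

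Between mice, high correlation held within groups of the 9 genes and not between all of them. Over the 20 libraries all 36 pairs had a positive Pearson r, on log2(normalized count + 1), with a median of 0.65 and a range of 0.18 to 0.898. The permutation test with adjustment over the 36 pairs was passed by 24 of them. The highest values were those of Fcgbp with Tff3 (r = 0.898, Spearman rho = 0.883), Muc2 with Agr2 (r = 0.896, rho = 0.92), Zg16 with Tff3 (r = 0.877, rho = 0.913), and Fcgbp with Zg16 (r = 0.853, rho = 0.863). For each of these the permutation p was 1e-05, the smallest that 100000 permutations can give, and the adjusted p was 7.2e-05. Without the 2 libraries farthest from the median they were 0.863, 0.90, 0.817, and 0.779.

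Between Muc2, Agr2, Spink4, and Spdef on one side and Fcgbp, Zg16, and Tff3 on the other, no pair passed. These sides were drawn from the same correlations, so the split is a description with no test. Muc2 with Tff3 had r = 0.183 (permutation p = 0.44, adjusted 0.443), and Fcgbp with Spdef r = 0.18 (permutation p = 0.443, adjusted 0.443). The Spearman values of these were 0.281 and 0.278. Atoh1 and Clca1 passed with members of both sides, as in Muc2 with Atoh1 (r = 0.83) and Fcgbp with Clca1 (r = 0.783). After removal of the diet means the median r over pairs was 0.518 and 32 of 36 stayed positive. Within diets Fcgbp with Tff3 had r = 0.895 and Muc2 with Agr2 r = 0.852, while Muc2 with Tff3 had -0.0775 and Fcgbp with Spdef -0.103. Without 0% RPS replicate 2 the lowest r was 0.267 and the median 0.678, and pairs between the sides ran from 0.267 (Zg16 with Agr2) to 0.529 (Muc2 with Fcgbp). Whether the genes of one side differed from those of the other in their response to diet was not tested.

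**Figure D4:**
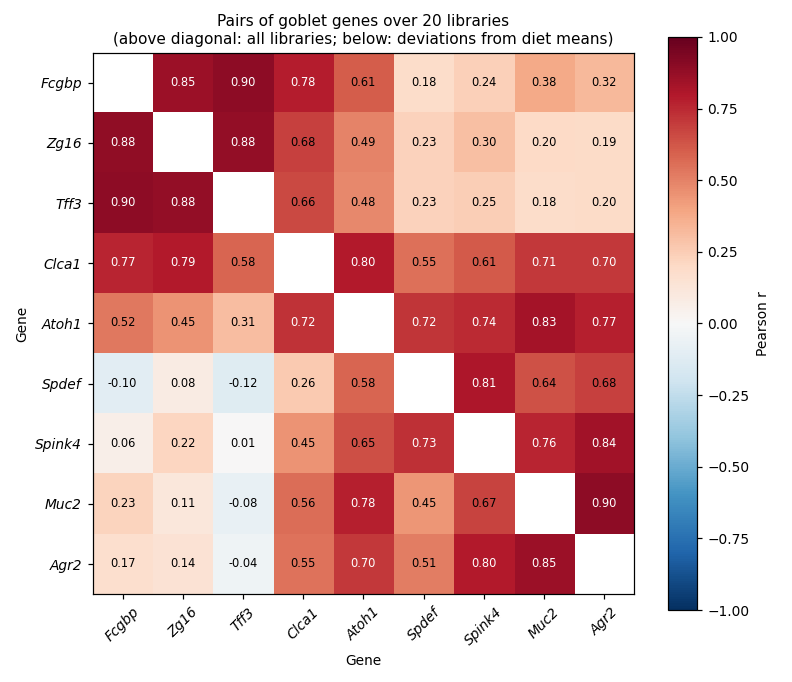
Pearson r between pairs of the 9 goblet genes over 20 libraries, on log2(normalized count + 1); above the diagonal for all libraries, below it for deviations from the diet means. Fcgbp, Zg16, and Tff3 form a corner of high r (0.853 to 0.898), and Muc2 with Agr2 has 0.896, with low values between Fcgbp, Zg16, or Tff3 and Muc2, Agr2, Spink4, or Spdef.

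Genes of the table with the pattern most like the mean of the 9 goblet genes were ranked by Pearson r over the 20 libraries among 12339 genes, as a description. Rab27a, a GTPase of secretory granules, came first with r = 0.912, followed by Pgcka1 (0.905), Bace2 (0.89), and Sec11c (0.889), a subunit of the signal peptidase. Impdh1, Kcnk6, Smim14, Slc2a10, Kctd14, and Rab3d, another GTPase of granules, filled the 10 places down to r = 0.863. Within diets these 10 had r of 0.772 to 0.873.

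The lists of other mucus and goblet genes hold the partners of the 9 in making mucus. At 2% RPS 0 of their genes were called by DESeq2 or edgeR, where 8.7% of all genes had an unadjusted p under 0.05 in DESeq2. Such a p was found in 7 of 31 O-glycosylation genes, 1 of 4 membrane mucins, 1 of 22 folding and release genes, 2 of 18 lineage regulators, 0 of 13 other goblet cell markers, and 0 of 5 other secreted products. Of the membrane mucins, which line the surface of the epithelium, 4 of 7 listed were in the table, and Muc13 was called at both higher starch levels. Muc13 had 46309, 36225, 41471, 43546, and 38117 normalized counts at 0% RPS, 48045 to 76255 at 5%, and 57078 to 67074 at 10%. The starch libraries at 5 and 10% did not overlap with the controls. The log2 difference was 0.60 ± 0.11 at 5% (adjusted p = 9.92e-05, edgeR 0.0394) and 0.60 ± 0.11 at 10% (adjusted p = 3.28e-05, edgeR 0.0195). Omission of 0% RPS replicate 2 left 0.55 at 5% (adjusted p = 0.000517) and at 10% (adjusted p = 0.000171), under the fold of 1.5, so that neither was called. Muc17 (0.034 per percentage point of RPS, adjusted p = 0.00161) and Muc4 (0.071, adjusted p = 0.0278) had a called trend as Muc13 had, although edgeR gave 0.0872 for Muc4. In the fit without that control library Muc4 was called higher at 5% (0.64 ± 0.19, adjusted p = 0.024) and at 10% (0.97 ± 0.19, adjusted p = 5.07e-05).

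Of the enzymes and sugar transporters of mucin O-glycosylation, 31 of 32 listed genes were tested. At 10% RPS 1 was called higher, Fut2, the fucosyltransferase that caps mucin glycans, and at 5% Fut2 was higher and Galnt15 lower. Fut2 had 3977 to 6166 normalized counts at 0% RPS and 6126 to 9332 at 10%, a log2 difference of 0.81 ± 0.23 (adjusted p = 0.019, edgeR 0.0896). When 0% RPS replicate 2 was omitted, the adjusted p of Fut2 was 0.0812 at 5% and 0.0636 at 10%. The genes called at both levels in that fit were B3galt5, a galactosyltransferase (0.99 at 5%, 0.92 at 10%), and Galnt15 (-0.78 and -0.67). Galnt15, a transferase of the family that starts O-glycans, fell by 0.63 on the log2 scale at 5% (adjusted p = 0.0463, edgeR 0.139). The trend was called upward for 9 of 30 genes of the list and downward for 0, compared to 4.29% of all genes called in either direction. With edgeR it was called for 2, and for 165 of all 12366 genes tested. Gcnt3, which makes the core branches of mucin glycans, had the smallest p, with 0.037 ± 0.0070 per percentage point (adjusted p = 9.93e-05, edgeR 0.0211) and a log2 difference of 0.39 at 10% RPS. The median log2 difference of the list was 0.23 at 10%, compared to 0.46 for the 9 goblet genes.

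Of 22 genes for mucin folding, packing, and release 0 were called by DESeq2 or edgeR at any starch level or in the trend. At 10% RPS 9 of them had an unadjusted p under 0.05 with each tool (18.8% of all genes in DESeq2), and the median log2 difference was 0.21. The smallest p at 10% was that of Rab27a (0.45 ± 0.14, adjusted p = 0.0413), whose fold was under 1.5. With 0% RPS replicate 2 left out the trend was called for 6 of 22 (6.43% of all genes), and 1 was called at 10%, Sdf2l1 (0.60 ± 0.19, adjusted p = 0.026). Of 18 regulators of the secretory lineage 0 were called by either tool, with 3 at an unadjusted p under 0.05 in DESeq2 at 10% and 2 in edgeR. Foxa3, a forkhead factor of goblet cells, had the smallest p at 10% (0.33 ± 0.13, adjusted p = 0.132). The median of this list at 10% was 0.053. Klf4, a factor of the differentiated epithelium, had a called trend once 0% RPS replicate 2 was left out (adjusted p = 0.014). Of 13 other goblet cell markers 0 were called by either tool, with 1 at an unadjusted p under 0.05 at 10% in each, Tspan13 (0.37 ± 0.15, adjusted p = 0.147). With that library left out, 1 of them, Ccn3, was called at 5 and 10%, and the trends of Ccn3 and Tspan13 were called (adjusted p = 0.00042 and 0.0133). Of 6 other secreted goblet products present, 5 were tested at 10% and 0 called by either tool, with 2 at an unadjusted p under 0.05 in DESeq2 and 3 in edgeR. Klk1, a secreted kallikrein protease, had the smallest p at 10% (0.41 ± 0.13, adjusted p = 0.0432, fold under 1.5) and a called trend in DESeq2 (adjusted p = 0.046, edgeR 0.111). The median of that list was -0.23 at 10% RPS with all libraries and 0.23 without 0% RPS replicate 2, when 6 were tested. In that fit Retnlb, a bactericidal secreted protein, was called at 5% (1.72 ± 0.55, adjusted p = 0.0476) and not at 10% (1.31, adjusted p = 0.125). It had 6180 normalized counts in 0% RPS replicate 2 and 109.9 to 223.6 in the other controls. B3galt5, Sdf2l1, Klf4, Ccn3, and Retnlb are named here after their values were seen.

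**Figure D5:**
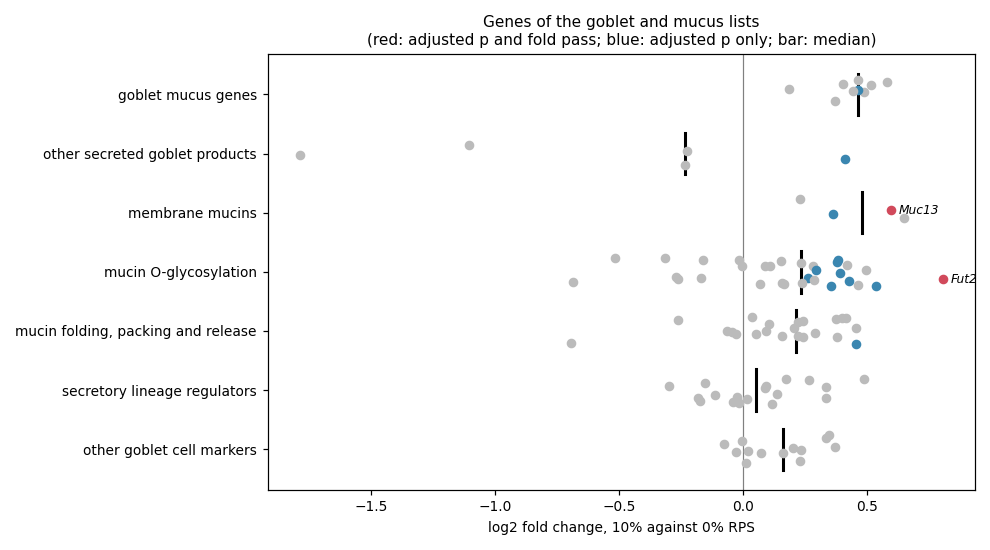
Log2 fold change at 10% compared to 0% RPS for each tested gene of the goblet and mucus lists; red points passed the adjusted p and the fold, blue points the adjusted p alone, and bars are medians. Muc13 and Fut2 are the red points, and the median of the 9 goblet genes is 0.46.

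Markers of other cell types give the makeup of the segments beside these values. At 10% RPS the median log2 difference was 0.13 for 10 general epithelial markers, 0.25 for 9 absorptive colonocyte markers, and -0.19 for 9 smooth muscle markers. Without 0% RPS replicate 2 these medians were 0.15, 0.29, and -0.029. For 4 leukocyte markers the median was -0.083 with all libraries and 0.42 without that library. Of these 4, Cd79a was then called higher, where 1.6% of all genes were called. The summed epithelial markers ranged from 392620 to 471260 at 0% RPS and from 404070 to 510990 at 10%. Of the secretory cells other than goblet cells, 6 enteroendocrine markers had a median of 0.049 and 4 tuft cell markers of -0.28. Insl5, an enteroendocrine peptide of the colon, was called lower at 10% RPS (-1.61 ± 0.48, adjusted p = 0.0258, edgeR 0.107). The 3 crypt stem cell markers tested had a median of -0.28, and Smoc2 a called downward trend (adjusted p = 0.00731). Epcam, Car4, and Emp1, of the epithelial and absorptive lists, had called upward trends (adjusted p = 0.023, 0.0329, and 0.0346). Of the posterior Hox genes, 1 of 5 tested was called at 10% RPS and 0 at 2 and 5%. Their sum ran from 1524 to 5982 at 0% RPS and from 1310 to 1603 at 10%, and the median log2 difference at 10% was -0.58 over 5 tested genes. Hoxa9 was called lower at 10% (-1.83 ± 0.52, adjusted p = 0.0186, edgeR 0.074) and in the trend (adjusted p = 0.0322). Once 0% RPS replicate 2 was left out, the control sum ran from 1524 to 2226 and the median was -0.39 over 6 genes. At 10% Hoxa9 was then at -0.70 (adjusted p = 0.0921) and Insl5 at -0.36 (adjusted p = 0.343), and the trends of Hoxa9 and Smoc2 stayed called. The part of these differences in the goblet gene values was not tested. With the epithelial marker score as a covariate, the median of the 9 goblet genes was 0.011 at 2% and 0.23 at 10% RPS, and 0 trends were called. The share of epithelium in the segments was not measured apart from these markers.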

How the data were processed

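Stranded mRNA libraries from the PC of 20 mice were read from a single end over 50 bases. The authors aligned reads to GRCm39 in CLC Genomics Workbench, and the deposited table holds their raw counts per Ensembl gene, not normalized or pooled; annotation, use of strand, and treatment of reads matching several places are not stated. Libraries were assigned to diets from their labels, with no pairing. Other tissues were not analysed here. The 9 genes and all lists were chosen with earlier results of these data known.

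DESeq2 (version 1.42.0, R version 4.3.3), the study's tool, was fitted here to all libraries and genes with diet as the only term, with the thresholds of the study. edgeR (version 4.0.16), other size factors, filters, fold thresholds, covariates (sva version 3.50.0), and omission of each library were alternatives. Values of pairs, lists, and markers without 0% RPS replicate 2 were added after seeing the data. Fits were tested on simulated data. The p values of the diet tests weigh differences between diets against the spread between these mice. The permutations for pairs shuffled all 20 libraries across diets, so their p values do not separate diet differences from that spread. Positions came from GENCODE M39 (12682 of 12701 identifiers found). Named were the 9 genes, and from each list the genes called in a comparison with 0% RPS and the one with the smallest p at 10% RPS, and the 10 genes most like the 9; other genes were named after their values were seen. A median over a list was taken as a description, without a test. One start region is not reported here.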

Additional observations from a re-analysis of the deposited data

Results flagged for a closer look

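Spdef in 10% RPS replicate 5 had 6419 normalized counts, compared to 4759 to 5100 in the other 4 libraries of the diet. Its gap to the next library was 0.795 of the range of the group, above Dixon's 95% critical value of 0.71 for 5 libraries. It was the 1 flag in 36 groups (9 genes in 4 diets), and chance alone flags about 1 in 20 groups.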

How the results depend on the processing

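No paired analysis was possible because the labels give no replicate numbers that diets share. Over the 297 alternative log2 differences at each level (9 genes, 33 settings), 297 were above 0 at 5%, 295 at 10%, and 291 at 2% RPS. When each library was left out in turn, the goblet genes called ranged from 0 to 1 at 2%, 0 to 1 at 5%, 0 to 4 at 10%, 0 to 5 in the trend, and 0 to 4 for any diet, and the medians from 0.164 to 0.357, 0.328 to 0.493, and 0.357 to 0.558. The trend called 0 genes with edgeR, with total counts as size factors, and with the epithelial covariate. The trend also called 0 without the 3 libraries of outlying label numbers, 2% RPS replicate 5 and 10% RPS replicates 4 and 5. It called 2 with a smooth muscle covariate and 5 with 1 surrogate variable. That variable was 0.85 in 0% RPS replicate 2 and -0.254 to 0.192 in the other libraries. The calls with it are therefore not separate from those without that library. That variable gave 1 call at 5%, 2 at 10%, and 3 for any diet, where 86, 170, and 689 of all genes were called. The muscle covariate gave 1 for any diet (486 of all genes), and no fold threshold gave 1 at 10% (578 of all genes). With the epithelial covariate the median was 0.0108 at 2% and 0.231 at 10%. In settings added after seeing the data, omission of 0% RPS replicate 2 gave 4 at 10% and 3 trends with edgeR, and 4 trends and 1 for any diet with the epithelial covariate. Over all genes, edgeR then called 130 at 10% and 344 trends, and the covariate fit 509 trends and 218 for any diet. Over all genes the trend was called for 538 in the reported fit, 165 with edgeR, 865 with total counts, 605 with the muscle, 243 with the epithelial covariate, 879 with the surrogate variable, and 178 to 807 without single libraries. At 10% RPS 113 were called, 62 to 201 without single libraries. At 2% RPS 3 were called (1 to 10 without single libraries), at 5% 55 (24 to 104), and for any diet 299 (122 to 556). Without the 3 libraries of outlying label numbers 67 were called at 10% and 265 in the trend.

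Signs turned in these cases. The Zg16 trend was -0.00442 with total counts, -0.00332 with the muscle covariate, -0.0141 with the epithelial covariate, -0.000362 with the surrogate variable, and from -0.00702 to 0.0105 without single libraries, below 0 in 6 of 20 cases (also -0.0034, -0.00347, -0.00517, -0.00419, and -0.00475). It was -0.00559 with edgeR and -0.0175 with the epithelial covariate when 0% RPS replicate 2 was also omitted. With the epithelial covariate at 2%, Fcgbp was at -0.0108, Clca1 at -0.00591, Spink4 at -0.0933, and Agr2 at -0.0837, and Zg16 at 10% was at -0.0771. With 0% RPS replicate 2 also omitted, Fcgbp at 2% was at -0.104 and Zg16 at 10% at -0.108. Agr2 at 2% ranged from -0.0117 (without 0% RPS replicate 5) to 0.288 (without 0% RPS replicate 2). None of these values passed the test, and the cause was not tested. Atoh1, the lowest of the 9, had at least 1493 normalized counts in every library.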
